A study of Mus musculus with 79 samples.

Results

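The clustered protocadherin genes lie in an alpha, a beta and a gamma cluster next to each other on mouse chromosome 18, and were taken as every gene of the expression table on that chromosome whose name starts with Pcdha, Pcdhb or Pcdhg. This gave 24 of the 25965 genes of the table, of which 22 were beta genes. The alpha and the gamma cluster each stood there as 1 merged gene. The gene named Pcdhac1 (GRCm38, chromosome 18, 36930285 to 37187657) joined the exons of the alpha isoforms over 24670 bp, and the gene named Pcdhga11 (37674335 to 37841873) joined those of gamma isoforms over 26094 bp. These are called the alpha gene row and the gamma gene row below, and single alpha or gamma isoforms could not be told apart in the RNA data. The histone marks were held in tiles of 2000 bp, of which 681 of 2725549 overlapped the clusters (257 alpha, 257 beta, 167 gamma). The gamma tiles begin with the gamma gene row and so leave out the first exons of Pcdhga1 (start 37661793) and Pcdhga2 (37668953), which lie before it. To give every isoform its own promoter, the annotated first exons were also used, 58 in all: 14 alpha, 22 beta and 22 gamma.

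Hypothalamus from adult mice of about 14 weeks was compared between wild-type (+/+) animals and Δ/D329A animals, which carried no intact Dnmt3a allele. Δ is a Dnmt3a allele without exon 18, made from a floxed allele by a Zp3-Cre that acts in the oocyte, and D329A is a point mutation in the PWWP domain, the part of the DNA methyltransferase DNMT3A that binds methylated H3K36. No RNA or ChIP library came from animals with D329A or Δ beside a wild-type allele (methylation libraries of these genotypes were not analysed here), so the parts of the 2 alleles cannot be told apart. RNA-seq was available for 5 +/+ and 4 Δ/D329A libraries, and ChIP-seq of H3K4me3, H3K27me3 and H3K36me3 with input for 3 animals of each genotype. The labels used here give no sex, and the study's figure legends name both sexes for the RNA. In all 9 RNA libraries Xist, which is transcribed from the inactive X of females, was at 3.797 to 4.59 log2 RPKM and 4 Y-linked genes had 0 or 1 read, whereas the ChIP inputs had the X-chromosome coverage of males, so expression and marks came from different animals. Whole hypothalamus was used, and fewer cells of a type and less RNA per cell cannot be told apart in it.

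Protocadherins are cell-adhesion proteins of the cadherin family, and the clustered ones give single neurons distinct surface identities that serve self-recognition of dendrites and axons. In the alpha and gamma clusters each variable first exon has its own promoter and codes for the extracellular, transmembrane and proximal cytoplasmic parts, and is spliced to constant exons that code for a shared cytoplasmic tail. Beta genes are single-exon genes without a constant tail. Most variable exons (the alternate isoforms) are chosen at random in each neuron through promoters that bind CTCF, whereas the last exons of the alpha and gamma clusters (the C-type isoforms) are used more evenly and have other roles, such as Pcdhac2 in the tiling of serotonergic axons and Pcdhgc4 in neuronal survival. Silent alternate promoters are known to carry DNA methylation, and DNMT3B is the methyltransferase best known for it.

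Reads on genes numbered 3874084 to 9976687 per RNA library and uniquely mapped reads 12676361 to 26178088 per ChIP library of a mark. The fewest RNA reads were in Δ/D329A replicate 2. H3K4me3 of Δ/D329A replicate 1 stood apart, with a median of 5 reads per tile against 1 to 3 in the other 5 libraries, so H3K4me3 over groups of starts and stretches, and at C-type starts, is also given without it. The median H3K4me3 of promoters was lower in Δ/D329A by a log2 difference of −0.21, that of H3K27me3 differed by −0.06, and that of H3K36me3 was higher by 0.28, and differences at the protocadherins are read beside these shifts.

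In +/+ hypothalamus the clusters were transcribed at very different levels along the chromosome. On the log2 RPKM scale, which is per exon length and depth, the alpha gene row read 1.82, 1.76, 1.66, 1.27 and 1.47 in the 5 libraries (1.60 ± 0.22, SD, n = 5). The gamma gene row, at 3.42, 2.97, 3.11, 2.66 and 2.69, was higher in each of them (2.97 ± 0.32, n = 5). Both rows average over isoforms, so neither is the level of a single isoform. The lowest beta gene was Pcdhb1, the first of the cluster, at −1.80, −2.26, −1.23, −1.93 and −2.37. These values rested on few reads, 4 to 14 in the 9 libraries of both genotypes. The highest was Pcdhb17, at 1.80, 1.65, 1.60, 1.39 and 1.17 (1.52 ± 0.25, n = 5), followed by Pcdhb14 at 1.21 ± 0.15. The ranges of these 2 genes overlapped, although Pcdhb17 was the higher in each of the 5 libraries. In +/+ replicate 5 it was barely so, at 1.170 against 1.166. The ranges of Pcdhb1 and Pcdhb17 lay far apart.

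Among the 22 beta genes, those later in the cluster were expressed higher, and those with more H3K27me3 at their promoter lower. H3K27me3 is the repressive mark set by Polycomb complexes. Over the 22 genes, mean +/+ expression followed the order along the chromosome with a Pearson r of 0.71 and a Spearman rho of 0.74. Expression ran against promoter H3K27me3, with r = −0.81 and rho = −0.67 in +/+, and with −0.75 and −0.70 in Δ/D329A. Without Pcdhb1, the farthest gene, the +/+ values were −0.71 and −0.62. For H3K36me3, the mark of transcribed gene bodies, r was 0.41, and for H3K4me3, the mark of active promoters, it was 0.18. These are descriptions across genes that share libraries, neighbours, tiles and sequence, not tests. The beta genes are also alike in sequence. Up to 11.99% of the stretches of 50 bp of a gene (in Pcdhb12) recurred elsewhere in the region of the alpha, beta and gamma clusters, on either strand. Part of their reads may thus have been lost or placed elsewhere.

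**Figure D1:**
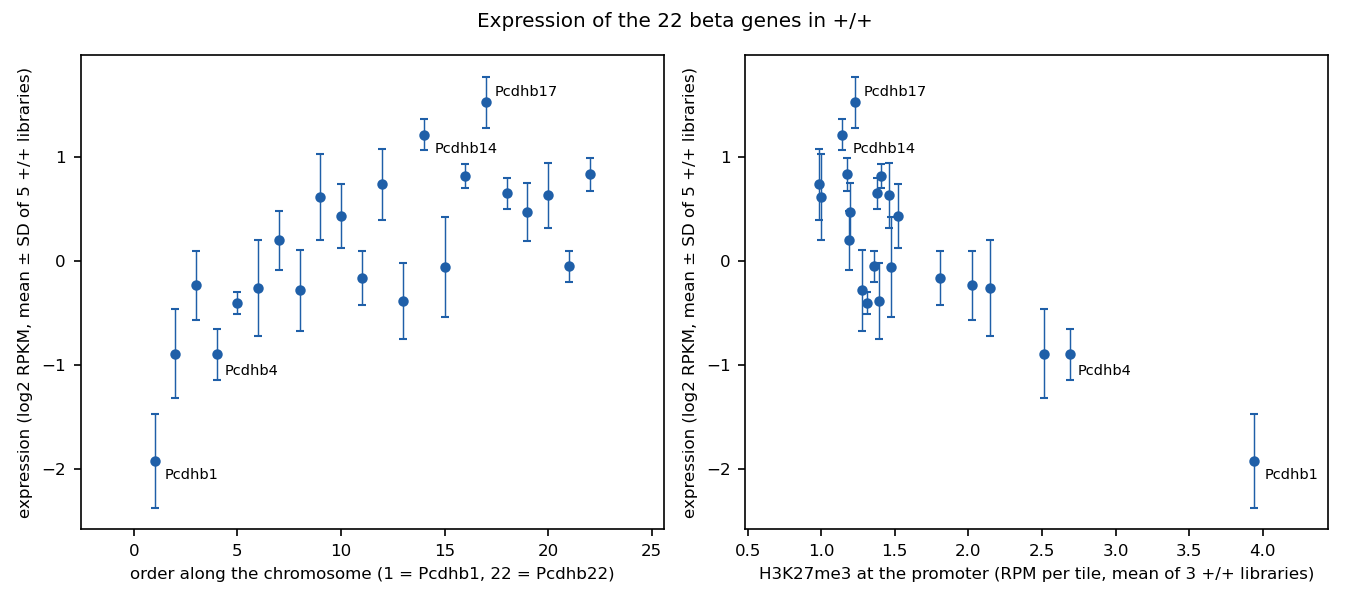
Expression of the 22 beta genes in +/+ (y axis, log2 RPKM, points with bars for the mean ± SD of 5 libraries) against their order along the chromosome (left) and the H3K27me3 at their promoter (right, RPM per tile, mean of 3 +/+ libraries). Pcdhb1 sits at the low end of expression and, at 3.94 RPM, at the high end of H3K27me3, and Pcdhb17 has the highest expression.

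The first comparison asked whether expression of the clusters differed in Δ/D329A. None of the 24 genes passed the threshold (limma, adjusted p under 0.01), against 0.107% of the 17839 genes tested, and none passed with edgeR or DESeq2 either. Without adjustment 3 of the 24 genes had a limma p under 0.05, 12.5% of them, against 7.62% of all genes tested, with 4 by edgeR against 16.2% of all genes and 3 by DESeq2 against 11.3%. All 3 were beta genes with lower values in Δ/D329A. The smallest adjusted p among the 24 was 0.355, and it ran from 0.0789 (edgeR) to 0.627 over the alternatives.

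The 2 merged gene rows hardly moved. In Δ/D329A the alpha gene row read 1.63, 1.45, 1.46 and 1.53, inside the +/+ range (log2 difference −0.08, SE 0.15). The gamma gene row read 3.01, 2.64, 2.98 and 2.99, with 1 library just below the +/+ range (−0.06, SE 0.18). Their limma adjusted p was 0.920 and 0.949. Summed RPKM of the 22 beta genes was 24.0 to 34.1 in +/+ and 22.3 to 32.3 in Δ/D329A, and the ranges overlapped.

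Pcdhb10, Pcdhb5 and Pcdhb8 had the smallest p of the beta genes. Pcdhb10 read 0.74, 0.20, 0.75, 0.37 and 0.09 in +/+ and 0.11, −0.44, −0.43 and −0.18 in Δ/D329A, a log2 difference of −0.66 (SE 0.21). Only Δ/D329A replicate 1 reached the lowest +/+ library. Pcdhb5 read −0.41, −0.30, −0.32, −0.57 and −0.44 in +/+ and −0.65, −0.89, −0.65 and −0.97 in Δ/D329A (−0.39, SE 0.16). All 4 mutant libraries lay below all 5 wild-type ones, and Pcdhb5 was the 1 gene of the 24 whose groups did not overlap, against 3% of all genes tested. Pcdhb8 read 0.33, −0.55, −0.16, −0.37 and −0.66 in +/+ and −0.45, −1.04, −1.50 and −0.62 in Δ/D329A (−0.62, SE 0.27), with groups that overlapped. The unadjusted limma p of these genes was 0.00852, 0.0380 and 0.0450, and each had an adjusted p of 0.355. Of their stretches of 50 bp, 7.24%, 4.82% and 8.03% recurred elsewhere in the region of the clusters.

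The extremes of the beta cluster kept their places in Δ/D329A. Pcdhb1 read −1.999, −2.69, −1.44 and −2.45 there and overlapped with +/+ (log2 difference −0.23, SE 0.31). Pcdhb17 read 2.30, 1.53, 1.85 and 1.80, of which 1 library lay above all of +/+ (0.35, SE 0.19, limma adjusted p = 0.409). Over all 24 genes, 17 had a lower mean in Δ/D329A and 7 a higher one, with a median log2 difference of −0.11, whereas 40.4% of all genes tested were lower and their median was 0.06. The count depended on single libraries. Without Δ/D329A replicate 2, the shallowest, 11 of the 24 were lower, with a median of 0.02 against 0.13 over all genes. Without +/+ replicate 1, 13 were lower, with a median of −0.03 against 0.17. The median of the 24 stayed below that of all genes in each alternative run.

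**Figure D2:**
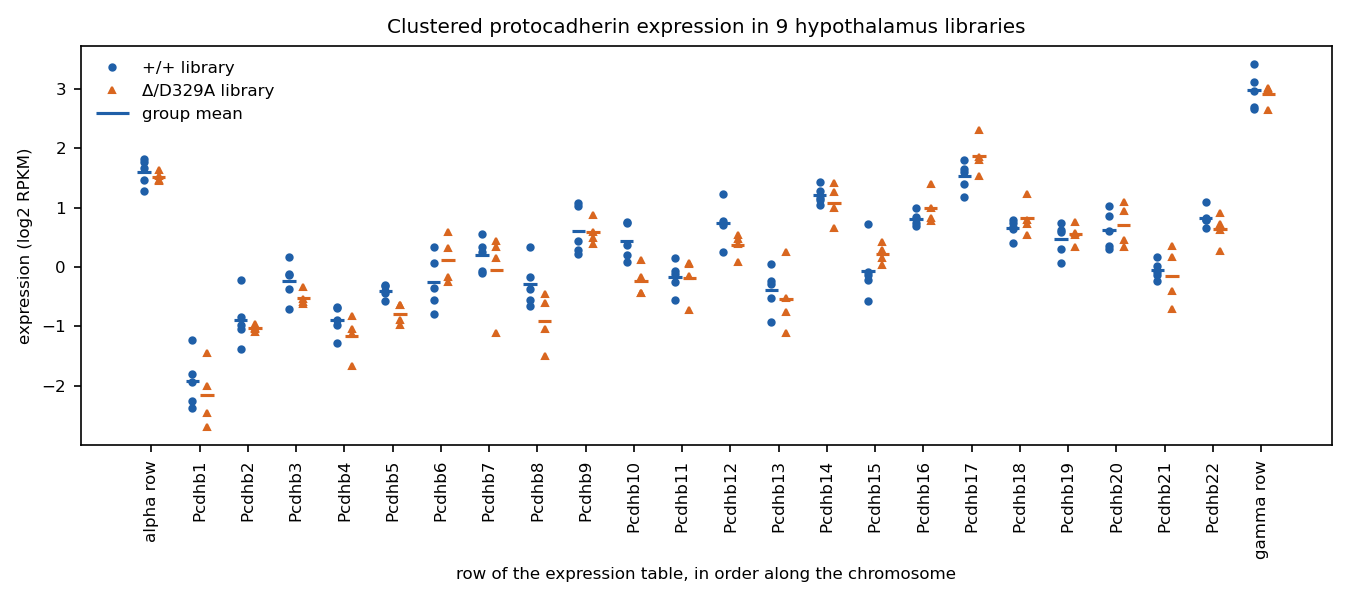
Expression (y axis, log2 RPKM) of the alpha gene row, the 22 beta genes and the gamma gene row in order along the chromosome, with a point for each of 5 +/+ and 4 Δ/D329A libraries and a line at each group mean. The genotypes overlap for every gene but Pcdhb5, whose 4 Δ/D329A libraries lie below all +/+ libraries, and expression climbs from Pcdhb1 towards the middle of the beta cluster.

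The promoters of the first exons differed in chromatin by type. H3K4me3 is given as the mean over tiles centred between 1500 bp before and 500 bp after a start, in RPM per tile, which is reads in a tile relative to all reads that the library placed uniquely. The 5 C-type promoters were the highest in their clusters. Pcdhac2 had 29.1, 30.1 and 32.4 RPM in the +/+ libraries (30.5 ± 1.67, n = 3) and Pcdhac1 had 9.68, 9.64 and 9.92. Pcdhgc3 had 12.1, 11.8 and 12.4 RPM. Pcdhgc4 had 20.1, 16.9 and 20.1, and Pcdhgc5 20.05, 16.3 and 21.8. Against a median of 11.1 RPM over all 31445 annotated starts, 4 of the 58 protocadherin starts were above it, and all 4 were C-type. The alternate alpha and gamma promoters ranged from 0.520 RPM (Pcdha1) to 6.99 RPM (Pcdhgb8), and the beta promoters from 0.654 (Pcdhb8) to 3.97 (Pcdhb14), none of which reached a C-type value.

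H3K27me3 was highest at the first promoters of the beta and gamma clusters. Pcdhb1 had 3.59, 3.60 and 4.64 RPM in +/+ and Pcdhga1 3.71, 2.58 and 3.35 RPM. All 22 beta promoters lay above 0.414 RPM, the median of all starts, and 5 of them, Pcdhb1 to Pcdhb4 and Pcdhb6, above the 90th percentile. In the alpha cluster the highest was Pcdha2, at 1.27 RPM. Across all 58 starts, H3K4me3 and H3K27me3 ran against each other weakly (Pearson r = −0.47, a description over starts that share tiles). H3K36me3 was high at the alternate promoters, most of which lie between other first exons of their cluster: all 19 alternate gamma promoters (0.918 to 2.40 RPM, highest at Pcdhgb6) were above the 90th percentile of all starts, as were 9 of 12 alternate alpha, 11 of 22 beta and 1 of 5 C-type promoters. The 1000 bp around a start held a median of 15 CpG sites in the beta cluster, 36 in the alpha and 32.5 in the gamma cluster and 44 at C-type starts, where the median of all starts was also 44.

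**Figure D3:**
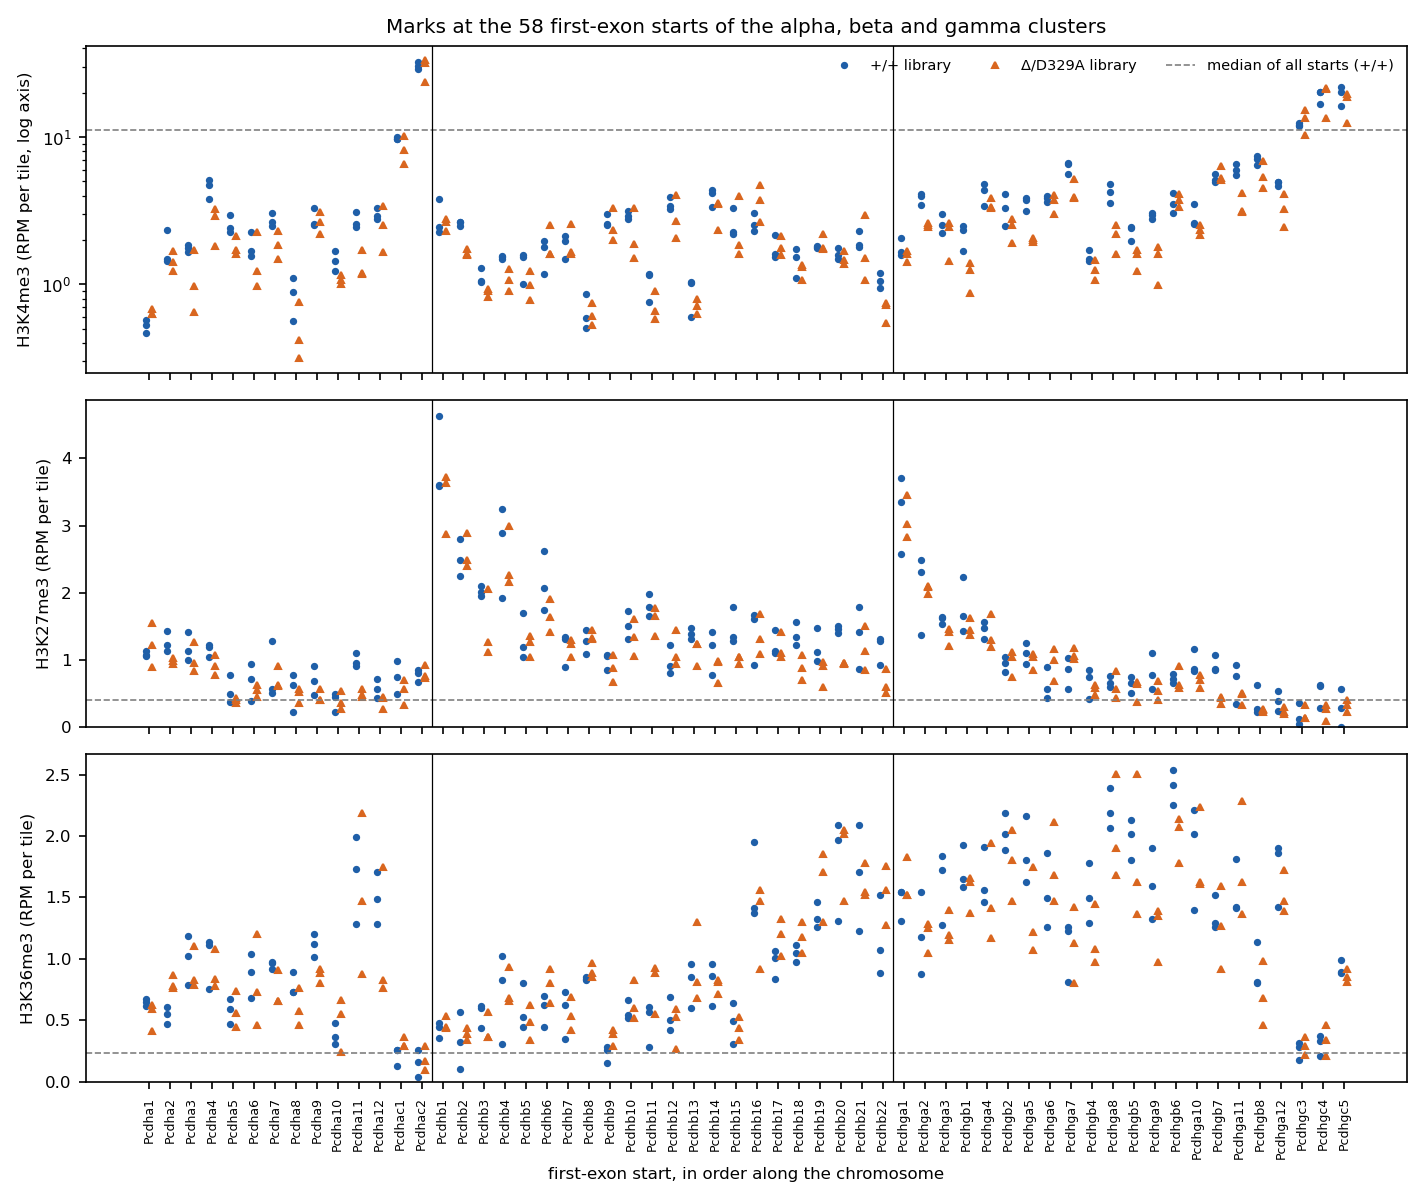
H3K4me3 (top, log axis), H3K27me3 (middle) and H3K36me3 (bottom) at the 58 first-exon starts in order along the chromosome, in RPM per tile, with a point for each of 3 +/+ and 3 Δ/D329A libraries, vertical lines between clusters and a dashed line at the median of all starts in +/+. The 5 C-type starts at the ends of the alpha and gamma clusters stand above the other starts in H3K4me3, H3K27me3 is highest at Pcdhb1 and Pcdhga1, and 15 of the 31 alternate alpha and gamma starts have all Δ/D329A points below all +/+ points in H3K4me3.

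The second comparison asked whether the marks at these promoters differed in Δ/D329A. By gene start of the expression table, none of the 24 promoters passed the threshold (limma, adjusted p under 0.05) for H3K4me3, H3K27me3 or H3K36me3, against 0%, 0% and 0.0231% of all 25952 gene starts. By first exon, none of the 58 passed for H3K4me3, H3K27me3 or H3K36me3 either, against 0%, 0% and 0.0127% of all 31445 starts. Simulated differences of a log2 size of 1 were recovered for 67 of 200 promoters in H3K4me3 and for 0 in H3K27me3 and in H3K36me3. The simulation assumed the same spread between libraries for all marks and did not estimate it from the data. At that assumed spread, differences of that size would mostly be missed by this design.

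H3K4me3 was nevertheless lower in Δ/D329A at most first exons, as it was at most starts. It was lower at 49 of the 58, 13 of 14 alpha, 17 of 22 beta and 19 of 22 gamma, against 74% of all starts. All 58 reached 0.5 RPM in at least 3 libraries, and of the 22604 starts that did, 84.6% were lower. The count of lower starts was thus near the share of starts with such values. Of the 58, 11 had an unadjusted limma p under 0.05 (2 alpha, 1 beta, 8 gamma), against 3.27% of all starts. In the fit of starts at or above 0.5 RPM these were 3 alpha, 1 beta and 8 gamma, against 5.35%. At 19 of the 58 starts all 3 Δ/D329A libraries lay below all 3 +/+ libraries, against 4.25% of all starts, and 15 of these were among the 31 alternate alpha and gamma starts. None of the 5 C-type starts was among them. With each library centred on its median start, 11 of 14 alpha, 13 of 22 beta and 17 of 22 gamma starts were lower and 10 had a limma p under 0.05, against 34.8% lower and 8.30% under 0.05 of all starts. Without Δ/D329A replicate 1, 11, 14 and 18 starts were lower, against 37.8% of all starts. The shares given for overlap, median centring and without replicate 1 are over all 31445 starts. They were not taken over the 22604 starts at or above 0.5 RPM. Such shares also depend on the starts used: over the 25952 gene starts, median centring gave 19.1% lower and 18.7% with a limma p under 0.05.

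The alternate gamma promoters gave the smallest p. Pcdhga11 had 5.94, 5.52 and 6.60 RPM in +/+ and 3.17, 4.14 and 3.10 RPM in Δ/D329A (log2 difference −0.79, SE 0.19, limma unadjusted p = 0.00514). Pcdhga8 had 3.54, 4.22 and 4.76 RPM in +/+ and 2.20, 1.62 and 2.52 RPM in Δ/D329A (−0.96), and was called when starts under 0.5 RPM were left out (limma adjusted p = 0.0363), a setting that called 1.46% of all 22604 starts left. Pcdhga5 and Pcdhga9, with log2 differences of −0.80 and −0.99, had groups that did not overlap either. At all 4 of these starts each mutant library lay below each wild-type library. At the highest alternate gamma promoter, Pcdhgb8, the groups overlapped, with 7.11, 6.42 and 7.42 RPM in +/+ and 4.48, 6.82 and 5.32 in Δ/D329A.

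In the alpha cluster the smallest p was at Pcdha11, with 2.56, 2.46 and 3.09 RPM in +/+ and 1.19, 1.18 and 1.71 RPM in Δ/D329A (−0.95, SE 0.28, limma unadjusted p = 0.0128). Pcdha4, the highest alternate alpha promoter, had 4.71, 3.79 and 5.09 RPM and then 1.82, 2.92 and 3.23 RPM (−0.78). Both had groups without overlap. Pcdha1 went the other way, from 0.569, 0.466 and 0.525 RPM to 0.627, 0.631 and 0.678 RPM, and was the 1 start of the 58 with all Δ/D329A libraries above all +/+ libraries. Its values lay near the mean H3K4me3 of all tiles, 0.628 RPM in +/+ and 0.623 RPM in Δ/D329A, so this start held little or no mark above background. In the beta cluster the smallest p was at Pcdhb2, with 2.50, 2.63 and 2.66 RPM in +/+ and 1.72, 1.62 and 1.58 RPM in Δ/D329A (−0.63, limma unadjusted p = 0.0322). Pcdhb14, the highest, overlapped, at 4.17, 3.36 and 4.37 RPM and then 2.35, 3.59 and 3.52 RPM.

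The C-type promoters differed less. Pcdhac2 had 23.5, 33.1 and 31.98 RPM in Δ/D329A, around its +/+ values (−0.06), and its difference turned positive (0.094) without replicate 1. Pcdhac1 had 6.59, 10.2 and 8.16 RPM (−0.25). Pcdhgc3 had 10.3, 15.1 and 13.4 RPM, Pcdhgc4 13.4, 21.6 and 21.1 RPM, and Pcdhgc5 12.4, 18.6 and 19.6 RPM. Replicate 1 was the lowest Δ/D329A library at all 5, and the groups overlapped at each. Without it the log2 differences were −0.095 (Pcdhac1), 0.23 (Pcdhgc3), 0.17 (Pcdhgc4) and −0.011 (Pcdhgc5), against 0.077, −0.053 and −0.22 with it for the last 3.

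Averaged around the starts, the H3K4me3 peak of the 12 alternate alpha exons was 3.27, 2.99 and 3.78 RPM per tile in +/+ and 1.90, 2.70 and 2.65 RPM in Δ/D329A (−27.7%). That of the 19 alternate gamma exons was 5.47, 5.31 and 6.14 RPM and then 3.70, 4.33 and 4.40 RPM (−26.5%), and in neither did the groups overlap. The peak of the beta starts differed by −11.6% and that of the C-type starts by −5.07%, both with overlap. Without Δ/D329A replicate 1 the differences were −19.996% (alternate alpha), −22.6% (alternate gamma), −2.19% (beta) and 6.35% (C-type), the last in the other direction.

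**Figure D4:**
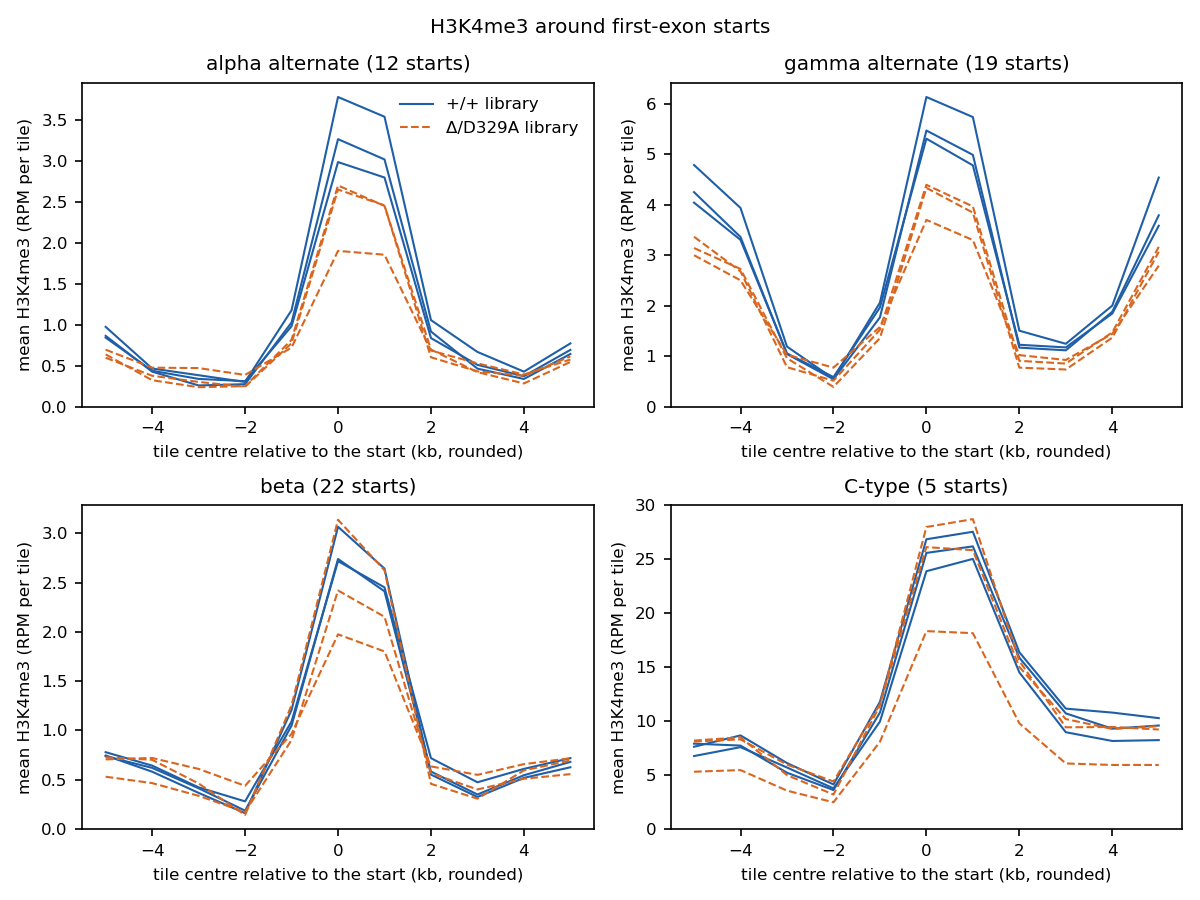
Mean H3K4me3 (y axis, RPM per tile, from 0) in tiles around the first-exon starts (x axis, kb from the start) of alternate alpha, alternate gamma, beta and C-type exons, with a line for each of 3 +/+ (solid) and 3 Δ/D329A (dashed) libraries. At the start the dashed lines lie below the solid lines for alternate alpha (2.42 against 3.35 RPM) and alternate gamma (4.14 against 5.64 RPM), and overlap with them for beta and C-type starts.

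The same was seen over stretches of the clusters, taken as the mean of all their tiles. The stretches are bounded by the first exons and hold the tiles at their starts, so they are not separate evidence. Over the stretch of alternate alpha exons (36930285 to 37022623, 92 tiles), H3K4me3 was 1.19, 1.14 and 1.40 RPM per tile in +/+ and 0.838, 0.971 and 0.960 RPM in Δ/D329A, a difference of −25.8% that ran from −28.7% to −20.9% on leaving out each library. Over the alternate gamma exons (37661793 to 37768540, 107 tiles) it was 2.53, 2.49 and 2.86 RPM and then 1.89, 1.92 and 2.02 RPM, −26.0% (−27.8% to −22.5%). The groups did not overlap in either stretch. The smallest p that an exact two-sided permutation test of 3 against 3 libraries can give is 0.1, so no p is given for these levels. Divided by the median promoter of each library, the differences were −13.7% (alpha) and −13.4% (gamma), and the gamma groups then overlapped.

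The other stretches were closer. The alpha C-type stretch had 2.43, 2.50 and 2.60 RPM in +/+ and 1.93, 2.62 and 2.44 RPM in Δ/D329A (−7.11%, and 0.80% higher without replicate 1). The gamma C-type stretch had 16.5, 14.4 and 16.8 RPM and then 10.7, 16.4 and 16.3 RPM (−9.07%, 2.75% higher without replicate 1, and −17.7% as a ratio to input). The beta cluster had 0.701, 0.736 and 0.710 RPM and then 0.687, 0.703 and 0.604 RPM (−7.14%), with replicate 2 inside the +/+ range. Within each library, the ratio of the alternate to the C-type stretch was 0.491, 0.457 and 0.537 in +/+ and 0.433, 0.370 and 0.394 in Δ/D329A for alpha, without overlap. For gamma it was 0.153, 0.173 and 0.171 and then 0.177, 0.117 and 0.124, where Δ/D329A replicate 1 was the highest of all, so a difference between alternate and C-type exons held in the alpha cluster and not across all gamma libraries.

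**Figure D5:**
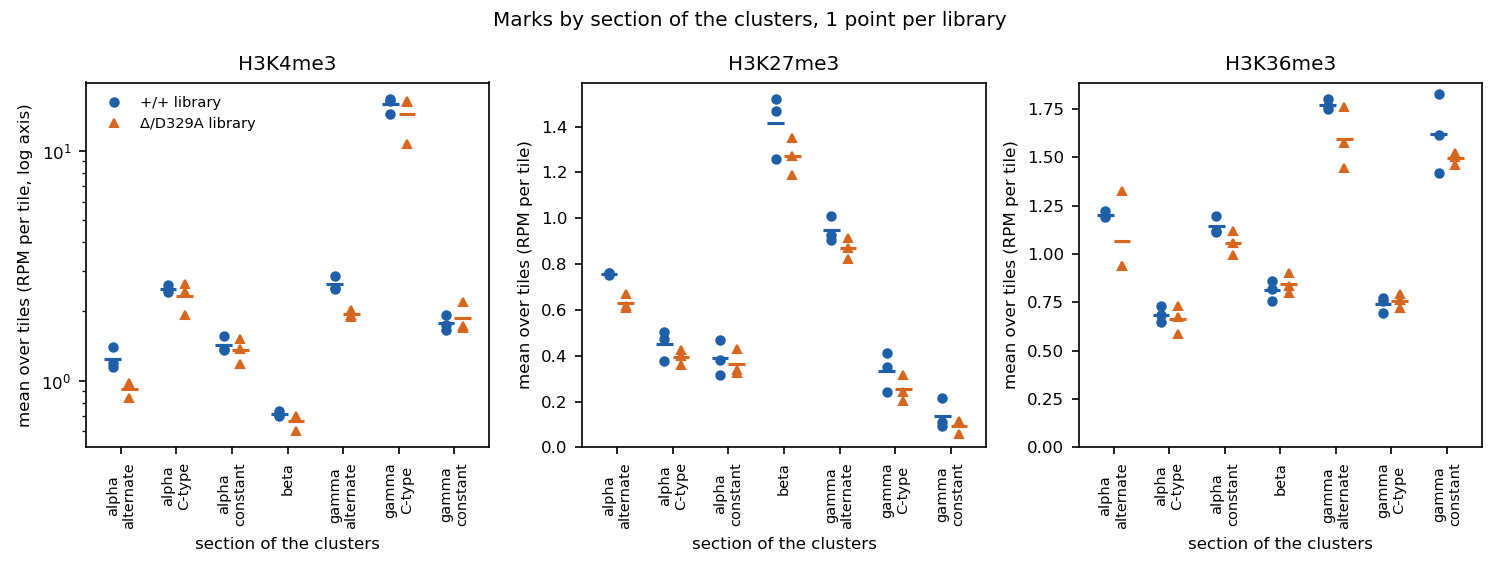
Mean H3K4me3 (left, log axis), H3K27me3 (middle) and H3K36me3 (right) over the tiles of each stretch of the clusters, in RPM per tile, with a point for each of 3 +/+ and 3 Δ/D329A libraries and a line at each group mean. In H3K4me3 the alternate alpha and alternate gamma stretches are the ones whose Δ/D329A points all lie below the +/+ points (−25.8% and −26.0%), and the beta cluster has the most H3K27me3.

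Tested tile by tile, 2 H3K4me3 tiles of the clusters were called (limma, adjusted p under 0.05), against 0.0697% of the 2112773 tiles tested, and they overlapped each other at the alternate gamma exon Pcdhga9. The tile from 37736001 to 37738000, which holds the Pcdhga9 start, had 4.55, 4.92 and 4.80 RPM in +/+ and 2.26, 1.58 and 2.45 RPM in Δ/D329A (log2 difference −1.17, SE 0.28, adjusted p = 0.0377). The tile from 37737001 to 37739000, which begins just inside that exon, had 4.93, 5.12 and 5.32 RPM and then 2.38, 1.58 and 2.58 RPM (−1.22, SE 0.27, adjusted p = 0.0153). Neither was called on leaving out +/+ replicate 1, 2 or 3 or Δ/D329A replicate 2, or with each library centred on its median tile, and without Δ/D329A replicate 1 or 3 only the latter tile was called. Without +/+ replicate 2 or Δ/D329A replicate 2 the tile from 37821001 to 37823000, past the Pcdhgc5 start, was called in their place, and without Δ/D329A replicate 2 also that from 37758001 to 37760000, past the Pcdhga11 start. Under an unadjusted limma p of 0.05 were 17 of 234 alpha tiles tested (7.26%), 13 of 225 beta tiles (5.78%) and 27 of 167 gamma tiles (16.2%), against 2.39% of all tiles, and neighbouring tiles share reads.

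The highest H3K4me3 tiles did not differ beyond their spread. The tile at the Pcdhac2 start had 41.1 RPM in +/+ and 39.6 RPM in Δ/D329A, that at the Pcdhgc4 start 35.8 and 33.7 RPM, and that at Pcdhb14 4.64 and 3.59 RPM. The alpha tile with the smallest p lay at Pcdha11, at 3.19 and 1.54 RPM (log2 difference −1.02, limma adjusted p = 0.405), and the beta tile with the smallest p at Pcdhb22 (−0.96).

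H3K27me3 was lower in Δ/D329A at 45 of the 58 first exons (11 of 14 alpha, 18 of 22 beta and 16 of 22 gamma), against 54.7% of all starts. An unadjusted limma p under 0.05 was reached at 6 of the 58, against 8.84% of all starts, and 11 of the 58 had all Δ/D329A libraries below all +/+ libraries, against 7.44%. The smallest p was at the alternate gamma exon Pcdhgb7, with 0.850, 1.08 and 0.868 RPM in +/+ and 0.437, 0.344 and 0.457 RPM in Δ/D329A (−1.01, limma adjusted p = 0.345). Pcdha11, which also had the smallest p in H3K4me3 among the alpha promoters, had 1.10, 0.961 and 0.917 RPM and then 0.571, 0.477 and 0.457 RPM (−0.86). Pcdhb20 had 1.51, 1.41 and 1.46 RPM and then 0.941, 0.955 and 0.965 RPM (−0.57). These 3 promoters had groups without overlap. The promoters richest in the mark overlapped: Pcdhb1 had 3.63, 3.72 and 2.87 RPM in Δ/D329A and Pcdhga1 3.46, 2.83 and 3.02 RPM.

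Over the alternate alpha stretch H3K27me3 was 0.761, 0.753 and 0.761 RPM per tile in +/+ and 0.670, 0.617 and 0.608 RPM in Δ/D329A, a difference of −16.7% without overlap, although the groups overlapped once divided by the median promoter (−13.0%). Over the alternate gamma stretch it was 1.01, 0.906 and 0.928 RPM and then 0.872, 0.821 and 0.913 RPM (−8.29%), with overlap. The C-type stretches differed by −12.8% (alpha) and −24.5% (gamma), both with overlap. So did the constant stretches, by −6.26% (alpha) and −31.6% (gamma), also with overlap. Over the whole clusters H3K27me3 differed by −14.0% for alpha and −13.2% for gamma, without overlap, and by −10.1% for beta, where the groups overlapped. Divided by the median promoter, the alpha groups overlapped as well (−10.1%), and the gamma groups stayed apart (−9.54%). No H3K27me3 tile of the clusters was called, against 0.0248% of the 2371811 tiles tested. Under an unadjusted limma p of 0.05 were 19 of 246 alpha, 17 of 249 beta and 13 of 159 gamma tiles, against 6.32% of all tiles. The smallest p was in a tile at Pcdhgb7, at 1.14 RPM in +/+ and 0.416 RPM in Δ/D329A (limma adjusted p = 0.188), and those of the alpha and beta clusters lay at Pcdha11 (log2 difference −0.88) and Pcdhb20 (−0.86). The richest tiles of those tested were at Pcdhb1, with 4.06 RPM in +/+ and 3.51 RPM in Δ/D329A, near Pcdhgb1, with 1.87 and 1.70 RPM (Pcdhga1 lies outside the gamma tiles), and near Pcdha2, with 1.55 and 1.15 RPM. Of these, the last had groups without overlap.

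H3K36me3 differed in direction between the clusters before scaling. Of the 58 first exons 33 were lower in Δ/D329A (10 of 14 alpha, 8 of 22 beta and 15 of 22 gamma), against 36.1% of all starts. An unadjusted limma p under 0.05 was reached at 1, Pcdha2, against 6.4% of all starts. Pcdha2 had 0.613, 0.474 and 0.550 RPM in +/+ and 0.779, 0.762 and 0.866 RPM in Δ/D329A (0.49, adjusted p = 0.743). It was among 6 starts of the 58 whose groups did not overlap, 3 of them lower, against 11.8% of all starts. The highest promoters were Pcdhgb6, with 2.25, 2.42 and 2.54 RPM and then 1.78, 2.14 and 2.07 RPM (−0.26), Pcdhb20 with 1.97, 2.09 and 1.31 RPM and then 2.05, 2.02 and 1.47 RPM, and Pcdha11 with 1.73, 1.99 and 1.28 RPM and then 0.876, 2.19 and 1.47 RPM. Of these, Pcdhgb6 had groups apart and the others overlapped. The smallest p of the beta promoters was at Pcdhb11 (0.61) and of the gamma promoters at Pcdhga5 (−0.46), neither under 0.05 in limma.

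Over whole clusters H3K36me3 differed by −8.49% (alpha), 3.84% (beta) and −7.49% (gamma), with overlap in each, and input by −1.89%, 0.253% and 4.51%. Divided by the median promoter, which was higher in Δ/D329A, the differences were −24.8% (alpha) and −23.9% (gamma), then without overlap. That of beta was −14.4%, which turned direction and overlapped. The median promoter held little of this mark, 0.241, 0.237 and 0.262 RPM in +/+ and 0.268, 0.295 and 0.341 RPM in Δ/D329A. The mean over all tiles was 0.674 RPM in +/+ and 0.666 RPM in Δ/D329A, so this scaling rests on low values. No H3K36me3 tile of the clusters was called, against 0.00317% of the 2459979 tiles tested. Under an unadjusted limma p of 0.05 were 29 of 249 alpha (11.6%), 16 of 247 beta and 17 of 167 gamma tiles (10.2%), against 6.31% of all tiles. The smallest p in the gamma cluster was in the tile from 37823001 to 37825000, between Pcdhgc5 and the constant exons, with 0.394, 0.332 and 0.209 RPM in +/+ and 0.876, 0.836 and 0.840 RPM in Δ/D329A (log2 difference 1.23, limma adjusted p = 0.417). Those of the beta cluster (past Pcdhb1, 1.63) and the alpha cluster (past Pcdhac2, −1.12) also had groups apart. The tiles with the most H3K36me3 overlapped between the groups, at 3.28 RPM in +/+ and 2.97 RPM in Δ/D329A past Pcdhga12, 2.84 and 2.67 RPM past Pcdhb14, and 2.68 and 2.40 RPM past Pcdha12.

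The genes around and behind the clusters were set beside them. Of 12 nonclustered protocadherins, which lie outside the clusters and mostly mediate homophilic adhesion, 11 were tested and none was called. An unadjusted limma p under 0.05 was reached by 4 of the 11, against 7.62% of all genes tested, and all 4 were lower in Δ/D329A. Pcdh20 was 2.36 ± 0.43 in +/+ (log2 RPKM, n = 5) and 1.69 ± 0.25 in Δ/D329A (n = 4), and Pcdh19, mutated in an inherited epilepsy, was 3.002 ± 0.12 and 2.69 ± 0.06 without overlap. Pcdh18 differed by −0.45 and Pcdh11x by −0.40. Over the 11 genes 6 were lower, with a median log2 difference of −0.13, against 0.06 over all genes tested.

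Of 19 tested entries for regulators of the clusters, 11 were higher and 8 lower. None had an unadjusted limma p under 0.05, and the median log2 difference was 0.02. Atf7ip stood among them as separate entries that went both ways (0.27 and −0.05). Dnmt3b, at a mean of −3.80 log2 RPKM in +/+ and −3.29 in Δ/D329A, was too low to be tested. Ctcf, whose product binds the promoters and enhancers of the clusters, differed by −0.05, and Smchd1, a chromatin protein needed for their silencing, by −0.09. Dnmt3a itself was 1.91 ± 0.16 in +/+ and 1.63 ± 0.09 in Δ/D329A (log2 difference −0.28, limma adjusted p = 0.355), a check of the deleted exon that a value over all exons can give only in part. Of 15 tested intracellular partners, 9 were higher and 6 lower, none had an unadjusted limma p under 0.05, and the median was 0.05. The kinase genes and actin regulators among them included Ptk2b (0.46) and Abi2 (−0.27). Of 21 tested genes inside or next to the clusters, 16 were higher and 5 lower, with a median of 0.18, and 1 had an unadjusted limma p under 0.05, the mitochondrial carrier gene Slc25a2 (−1.16), whereas Taf7, a subunit of the general transcription factor TFIID, differed by 0.05. Pcdh1 (0.23) was counted both here and among the nonclustered protocadherins.

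The dissections held hypothalamus by its neuropeptide genes, all 10 of which were detected and whose summed level was 398 to 831 RPKM in +/+ and 463 to 677 in Δ/D329A. The summed neuronal markers were 172 to 331 and 219 to 297 RPKM, and oligodendrocyte markers 242 to 375 and 182 to 334 RPKM, overlapping in both. Summed markers of neighbouring tissue were low or moderate, and those of 4 lists given next leaned higher in Δ/D329A, with overlap except for the cortical ones. Cortical projection neuron markers summed to 0.487 to 0.851 RPKM in +/+ and 0.987 to 1.30 in Δ/D329A, and choroid plexus markers to 1.45 to 2.92 and 2.59 to 5.11 RPKM. Thalamic markers summed to 8.98 to 14.6 and 11.7 to 31.7 RPKM and serotonergic markers to 0.0634 to 0.168 and 0.140 to 0.318 RPKM. Single markers did not all go with these sums. Of the tested cortical markers 2 were higher and Neurod6 was lower (log2 difference −0.40). Of the tested choroid plexus markers 2 were higher, with Ttr at 1.82, and Kl was lower (−0.43, groups without overlap). The 3 meningeal markers were all lower, Dcn by −0.12, Lum by −0.76 and Col1a1 by −0.19. None of these markers was called in limma, and their part in the differences at the protocadherin genes was not tested.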

How the data were processed

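Hypothalamus RNA-seq (9 libraries) and native ChIP-seq (24 libraries, 4 from each of 6 animals) were grouped by the deposited genotype labels. The authors deposited log2 RPKM per gene, from 50 bp reads merged over exons, with genes without a read at a floor of 0.9 reads, and 1 Δ/D329A RNA library had been left out by them. For ChIP the authors deposited coverage signal, as reads (75 bp) relative to all uniquely placed reads (RPM), in tiles of 2000 bp every 1000 bp, without subtraction of input. The submitters' processing notes name Trim Galore 0.4.3, HISAT2 2.0.5, Bowtie2 2.3.2 and GRCm38.

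Log2 RPKM values of genes with at least 0.1 RPKM in at least 4 libraries were compared with limma 3.58.1 (trend) in R 4.3.3, leaving out 13 mitochondrial genes, and a gene was called when its p, adjusted after Benjamini and Hochberg, was under 0.01. Fits ran over all genes. Promoters (tiles centred 1500 bp before to 500 bp after a start) and tiles at or above 0.1 RPM in at least 3 of 6 libraries were compared on log2(RPM + 0.1) with the same test, called at 0.05, so differences of low values are understated. The limma p-values set the difference between genotypes against the spread between animals of a group, moderated over all genes, promoters or tiles of the fit. Whole reads came back from the values for 25965 of 25965 genes (within 0.02 reads), and edgeR 4.0.16 and DESeq2 1.42.0 were run on them as alternatives. The edgeR test called 77 and DESeq2 251 genes of the whole table at 0.01. The fits were tested on simulated data, where limma recovered 125 of 200 RNA changes of log2 size 1. Other pseudocounts, filters, windows, scalings, input correction and leaving out each library were also tried.

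The genes named per cluster were those with the highest and lowest +/+ expression, the C-type isoforms, those called and the 3 with the smallest p, and for each mark the promoter and tile with the highest value and the smallest p. Pcdhb14, Pcdhga8, Pcdhga5, Pcdhga9, Pcdha1, genes of the lists and tiles called in alternatives were named after their values were seen. The first-exon starts (GENCODE vM21 and RefSeq of GRCm38.p6) were added after the data were seen. Members and lists were chosen with earlier results of these data known. Astrocyte marker genes summed to 103 to 153 RPKM in +/+ and 112 to 176 in Δ/D329A, and no marker of oligodendrocyte precursors, microglia, endothelial or meningeal cells was called. Sequences of the clusters are not reported here.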

Additional observations from a re-analysis of the deposited data

Results flagged for a closer look

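Of 48 sets of libraries of a genotype that were tested for a library far from the others, 1 had such a library, and chance gives about 1 in 20. The gamma gene row (Pcdhga11) was 2.64 log2 RPKM in Δ/D329A replicate 2, below the other 3 Δ/D329A libraries, which lay between 2.98 and 3.01. This is the library with the fewest reads on genes, 3874084. A part of depth in this value was not tested.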

How the results depend on the processing

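No gene of the clusters was called in RNA under any alternative run, and no promoter of the gene starts for any mark. Of the values that answer a comparison, 195 alternatives kept the side of the threshold or stayed within the spread, and 19 did not; the cause of the latter was not tested. Of the single genes and tiles named, 579 alternatives kept their call, 18 lost it and 25 turned direction. The called H3K4me3 tiles numbered 1 with a pseudocount of 0.5, with every second tile or after subtraction of input, 0 with no filter, with median centring or with mitochondrial coverage as a covariate, and 0 to 2 on leaving out each library. With no filter 1 H3K27me3 tile was called, from 37829001 to 37831000 in the gamma constant stretch (−1.10). Leaving out starts under 0.5 RPM, 1 of 58 H3K4me3 first exons was called, Pcdhga8, against 1.46% of all starts in that fit. Divided by the median promoter, the log2 difference of H3K4me3 over the whole cluster was −0.0048 (alpha), 0.12 (beta) and −0.017 (gamma), and that of H3K36me3 −0.41, −0.22 and −0.39, where the alpha and gamma groups no longer overlapped and beta turned direction.

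Directions turned for values near 0. In RNA, Pcdhb1 was 0.0062 with library weights, and the gamma gene row ran from −0.14 to 0.048 on leaving out each library (0.048 without +/+ replicate 1, 0.024 without Δ/D329A replicate 2). The Pcdhac2 promoter in H3K4me3 was 0.057 with median centring, 0.049 with edgeR and −0.15 to 0.094 on leaving out each library, its tile −0.16 to 0.085, and the Pcdhgc4 tile 0.61 minus input and −0.25 to 0.11. The Pcdhga1 promoter in H3K27me3 was 0.091 minus input, 0.038 with median centring and −0.18 to 0.070, and the Pcdhgb1 tile 0.060 minus input and −0.24 to 0.023. In H3K36me3, the Pcdha11 promoter ran from −0.49 to 0.12, and the Pcdhb20 promoter was −0.014 minus input, −0.062 with median centring, −0.089 with edgeR and −0.14 to 0.20. The richest H3K36me3 tile past Pcdha12 ran from −0.27 to 0.040, and those past Pcdhb14 and Pcdhga12 were 0.34 and 0.23 minus input.

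Libraries with the same number did not deviate together (r from −0.054 to 0.137 in RNA, −0.261 to 0.234 in H3K4me3), so numbers were not taken to pair animals. With the number as a replicate block, 0 genes of the clusters and 2 H3K4me3 tiles were called, and no other call moved. With 3 libraries a genotype and 1 to 5 reads in the median H3K4me3 tile, counts in single tiles are low.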
